A study of Mus musculus with 14 samples.

Results

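The genes described here are 10 immediate early and stress response genes, Fos, Fosb, Jun, Junb, Egr1, Atf3, Ier2, Ier3, Nr4a1 and Dusp1. Their RNA was measured in fetal mouse ovaries of controls and of conditional knockouts of the nuclear receptor COUP-TFII. The genes were taken by symbol: a probe set was used where the platform annotation paired it with 1 gene symbol and that symbol was on the list. This gave 11 probe sets of 45037, for 10 genes of 18193, with 2 probe sets for Jun and 1 for each other gene. Of the 10 genes, 8 had a mean level over the 14 arrays above the limit for testing, a signal of about 62.0. Fosb and Junb lay below it and were described from a fit with no such limit.

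Immediate early genes are transcribed within minutes of a stimulus, without new protein synthesis, by factors such as SRF, its ternary complex partners and CREB that are already in the cell and are switched on by kinases. Growth factors and hormones induce them, and so do stress, injury and the dissection of a tissue, so their levels also serve as a check on how samples were handled before freezing. FOS, FOSB, JUN and JUNB dimerise into the transcription factor AP-1. EGR1 is a zinc finger factor, ATF3 a stress-induced factor of the ATF/CREB family, and NR4A1 an orphan nuclear receptor that is strongly induced by trophic hormones in steroid-making cells. DUSP1 is a phosphatase that switches off MAP kinases, IER2 is a small nuclear protein, and IER3 is a protein tied to cell survival.

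RNA of whole ovaries was measured on 14 Affymetrix arrays, at the embryonic stages E14.5 (3 control arrays, 3 knockout arrays) and E16.5 (4 of each). The model was WT1-CreERT2; COUP-TFII flox/flox, in which tamoxifen lets a Cre recombinase made from the Wt1 locus delete the floxed gene, Nr2f2, in cells that express Wt1. All dams received tamoxifen, 2 mg per 10 g of body weight, at E11.5 and again at E12.5, so controls and knockouts of both stages shared that exposure, and the ovaries were frozen 2 or 4 days after the last dose. The background was a mix of C57BL/6, Swiss Webster and B6129SF1/J. The genotype of the controls beyond the word control, including whether they carried Cre, and any pooling of ovaries are not stated in the sources used here. The arrays of a group are named as biological replicates, and the separate animals or litters behind them are not given, so p-values measure the spread between these arrays.

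Nr2f2 had 6 probe sets, of which 3 passed as lower at E16.5. The other 3 had log2 changes of -0.79, -0.96 and 0.26 and did not pass (limma adjusted p = 0.116, 0.074 and 0.856). On the probe set with the largest change the signal was 1974 ± 185 (SD, n = 4) in E16.5 controls and 321 ± 60.6 (SD, n = 4) in E16.5 knockouts, a log2 change of -2.57 with a limma adjusted p of 0.0135. None of the 6 passed at E14.5. On that probe set the array labelled E14.5 control 1 had 19.3, against 350 and 207 on the other controls and 34.6, 65.6 and 79.1 on the knockouts. On another it had 16.1, also below all knockouts. On 1 probe set it had 268, above the knockouts at 219, 161 and 259, and on the remaining 3 it lay inside the knockout range. Members' values at E14.5 are therefore also given without that array. The sources used here do not state which probe sets lie in the deleted part. Within a group, arrays correlated at 0.969 to 0.982 over probe sets. The pregranulosa markers Foxl2 and Wnt4 and the germ cell marker Dazl were above the limit in the ovaries, as were 4 of 6 Sertoli markers (Sox9, Dmrt1, Cyp26b1 and Ptgds, but not Amh or Dhh). The 3 annotated Y-linked genes were below it.

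Promoter sequence was read from RefSeq (GRCm38.p6) for 8 of the 10 members, as the 250 bases before the start site. No window was read for Egr1 or Ier2, so the motif counts of the members do not cover these 2 genes. The windows were searched on both strands for the CRE half-site CGTCA, which CREB and ATF proteins bind, its full palindrome TGACGTCA, the AP-1 site TGANTCA, the CArG box of SRF, TATAAA and the nuclear receptor half-site AGGTCA. The full palindrome holds 2 overlapping half-sites. The 4 sequences below belong to the 3 tested members whose E16.5 knockout and control arrays did not overlap, Nr4a1, Fos and Ier3, and to Dusp1, which held the full palindrome. Each is written 5′ to 3′ on the strand of its gene, and capitals mark CRE half-sites and the palindrome.
Nr4a1: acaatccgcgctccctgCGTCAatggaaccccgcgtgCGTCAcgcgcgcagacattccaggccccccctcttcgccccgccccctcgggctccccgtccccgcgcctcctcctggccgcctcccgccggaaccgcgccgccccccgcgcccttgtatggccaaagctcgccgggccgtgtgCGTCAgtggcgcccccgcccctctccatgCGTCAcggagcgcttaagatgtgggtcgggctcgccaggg
Fos: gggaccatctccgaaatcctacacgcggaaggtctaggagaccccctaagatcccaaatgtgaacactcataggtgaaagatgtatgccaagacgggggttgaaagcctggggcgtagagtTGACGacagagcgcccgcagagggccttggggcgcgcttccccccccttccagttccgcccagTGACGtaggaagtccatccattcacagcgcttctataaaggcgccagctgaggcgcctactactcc
Dusp1: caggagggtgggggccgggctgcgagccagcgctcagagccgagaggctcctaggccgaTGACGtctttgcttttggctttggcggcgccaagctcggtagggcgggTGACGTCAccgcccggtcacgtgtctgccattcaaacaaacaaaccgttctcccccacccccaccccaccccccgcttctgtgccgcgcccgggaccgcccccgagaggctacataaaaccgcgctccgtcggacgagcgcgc
Ier3: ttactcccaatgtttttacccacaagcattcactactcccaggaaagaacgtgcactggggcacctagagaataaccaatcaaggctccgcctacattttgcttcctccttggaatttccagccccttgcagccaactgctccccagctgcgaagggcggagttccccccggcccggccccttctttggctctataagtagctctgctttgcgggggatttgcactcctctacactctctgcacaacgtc

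The Nr4a1 window (chr15:101266596-101266845, plus strand) held 4 half-sites, whose first bases lie 233, 213, 69 and 40 bases before the start. The Fos window (chr12:85473640-85473889, plus strand) held 2, at 129 and 66, and a TATAAA at 33. The Dusp1 window (chr17:26508473-26508722, minus strand) held 3, of which 2 form the palindrome at 143, and the Ier3 window (chr17:35821463-35821712, plus strand) held none. Fosb, Junb and Atf3 held 1 each and Jun held 0. Thus 6 of the 8 windows held a half-site, against 17.8% of 32807 windows of the same length, and 3 of the 8 held at least 2, against 3.9%. The palindrome was in 1.55% of all windows and TATAAA in 12.4%. None of the 8 member windows read held TGANTCA, a CArG box or AGGTCA, which were in 6.75%, 1.47% and 14% of all windows. A match describes the letters only, and an absent match says nothing of sites outside the window.

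Signals are linear MAS5 values, on a scale set for each array to the same trimmed mean, and levels of different probe sets are not compared with each other. Changes are differences of log2(signal + 16), a scale that understates the change of dim genes. For tested genes each is given with its standard error (SE) and an adjusted p from limma over the 12406 genes tested, and an adjusted p below 0.05 is called passing. The Nr2f2 probe sets and the second Jun probe set came from a fit of all 45037 probe sets, adjusted over these. Fosb and Junb came from a fit of all 18193 genes.

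**Figure D1:**
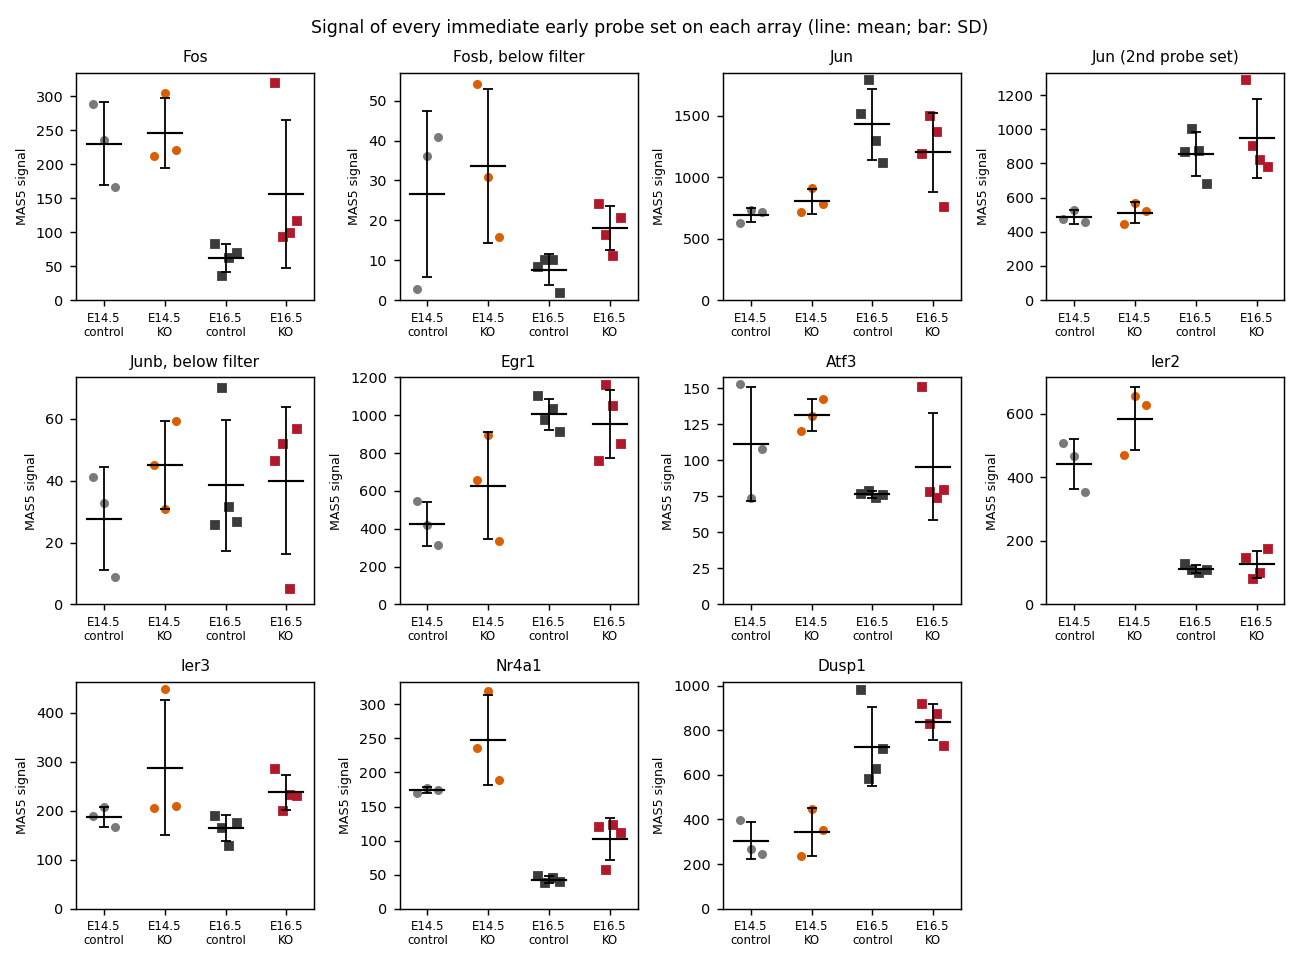
Linear MAS5 signal (vertical axis, arbitrary units) of the 11 probe sets on each of the 14 arrays, by stage and genotype (KO, knockout); lines are group means and bars SD, with 3 arrays a group at E14.5 and 4 at E16.5. All 4 E16.5 knockout arrays lie above all 4 controls for Fos, Nr4a1, Ier3 and Fosb, and the Fos knockouts are spread from 93.0 to 320.

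The comparison of E14.5 knockouts with controls asked how the genes stood 2 days after the last dose. No member passed. All 8 tested members had a positive log2 change, with a median of 0.32, and 55.3% of all genes tested were positive, with a median of 0.03. The largest changes were those of Ier3, Egr1 and Nr4a1. The count of members passing was 0 of 8, against 0.0403% of all genes, and 0 of 8 had an unadjusted p under 0.05, against 8.55%.

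Nr4a1 was the member whose E14.5 groups did not overlap. Its signal was 169, 178 and 175 on the control arrays and 236, 319 and 189 on the knockout arrays. The lowest knockout lay close above the highest control, and the 3 controls were close together. The log2 change was 0.45 ± 0.26 (SE, n = 3 per group; 95% interval -0.10 to 0.99; limma adjusted p = 0.66). Non-overlap with higher knockouts held for 1 of 8 members and for 7.84% of all genes.

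Egr1 had a signal of 547, 421 and 313 on controls and 657, 894 and 335 on knockouts. The third knockout array lay inside the control range, and the other two lay above it. The log2 change was 0.47 ± 0.27 (SE; 95% interval -0.09 to 1.04; limma adjusted p = 0.654). It was 0.17 without knockout 2, 0.27 without control 3 and 0.86 without knockout 3 (limma adjusted p = 1, 0.919 and 0.0629).

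Ier3 had 189, 206 and 166 on controls and 206, 447 and 210 on knockouts. Only knockout 2 stood clear of the controls. The log2 change was 0.50 ± 0.25 (SE; 95% interval -0.03 to 1.02; limma adjusted p = 0.611), and without knockout 2 it was 0.15.

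Among the AP-1 subunits, Fos had 289, 235 and 167 on controls and 212, 305 and 221 on knockouts, which overlapped through most of their range. Its log2 change was 0.10 ± 0.36 (SE; 95% interval -0.67 to 0.86; limma adjusted p = 0.968). Jun had 632, 733 and 718 on controls and 718, 914 and 781 on knockouts, with a log2 change of 0.20 ± 0.21 (limma adjusted p = 0.839). Fosb and Junb, at means of 26.6 and 27.6 in controls, were too dim to rank: their changes were 0.31 ± 0.38 and 0.54 ± 0.44. Single Fosb signals ran from 2.71 to 54.3 at this stage.

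Ier2 had 507, 467 and 355 on controls and 470, 656 and 627 on knockouts, a log2 change of 0.39 ± 0.24 (SE; 95% interval -0.11 to 0.89; limma adjusted p = 0.679). Dusp1 had 399, 266 and 247 on controls and 234, 448 and 353 on knockouts, and the knockout range enclosed the control range (0.16 ± 0.23, limma adjusted p = 0.894). Atf3 ran from 74.0 to 153 on controls and from 120 to 143 on knockouts, with a change of 0.25 ± 0.27 (limma adjusted p = 0.844). Of these 3, Ier2 had a pair of knockouts above all controls and Atf3 had its highest array among the controls.

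Without the array labelled E14.5 control 1, the median change of the 8 members was 0.45 and 0 passed. Single changes were then 0.66 for Egr1, 0.50 for Ier3, 0.49 for Ier2, 0.48 for Atf3, 0.43 for Nr4a1, 0.36 for Dusp1, 0.27 for Fos and 0.14 for Jun. Without knockout 2 the median was 0.16 and 0 passed, with Fos at -0.06 and Dusp1 at -0.05.

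At E16.5, 4 days after the last dose, Nr4a1 was higher in knockouts and was the 1 member of 8 that passed. Of all genes 1.42% passed in either direction and 0.967% passed with higher knockouts. Fos had a change of like size with more spread between arrays and did not pass, and Ier3 stood at a smaller change that did not pass. The other 5 tested members overlapped between genotypes. Of the 8 members 6 had a positive change, with a median of 0.22, and of all genes 58.9% were positive, with a median of 0.05. An unadjusted p under 0.05 was found for 3 of 8 members and for 18.3% of all genes.

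Nr4a1 had a signal of 48.0, 37.8, 45.5 and 39.0 on control arrays and 120.0, 57.2, 122 and 110 on knockout arrays. Every knockout lay above every control, and knockout 2 lay between the controls and the other knockouts. The means were 42.6 ± 4.94 (SD, n = 4) and 102 ± 30.6 (SD, n = 4), and the log2 change was 0.97 ± 0.22 (SE; 95% interval 0.50 to 1.44; limma adjusted p = 0.0396), a fold of 1.96 on the scale with 16 added. The control level lies below the limit of about 62.0, so the size depends on the number added: the change was 0.62 with 64 added and 1.19 with 1 added. Nr4a1 no longer passed without control 1, 2, 3 or 4 (limma adjusted p = 0.0766, 0.0969, 0.0862 and 0.0848) or without knockout 1, 3 or 4 (limma adjusted p = 0.121, 0.0697 and 0.106), and it passed without knockout 2 (limma adjusted p = 0.0101). Its change stayed positive in all 21 alternatives run and passed in 8 of them, with an adjusted p from 0.0101 to 0.454.

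Fos had 82.9, 35.1, 61.8 and 69.2 on controls and 320, 93.0, 98.5 and 116 on knockouts. The groups did not overlap, though the highest control and the lowest knockout were close, and knockout 1 stood far above the other knockouts. The means were 62.2 ± 20.1 (SD, n = 4) and 157 ± 109 (SD, n = 4), and the log2 change was 1.01 ± 0.31 (SE; 95% interval 0.35 to 1.67; limma adjusted p = 0.116). Without knockout 1 it was 0.63 (limma adjusted p = 0.312). Among all 21 alternatives Fos passed in 1, and its change ran from 0.54 to 1.18.

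Ier3 had 190, 165, 127 and 175 on controls and 286, 199, 232 and 231 on knockouts. The groups did not overlap, with the lowest knockout just above the highest control. The log2 change was 0.49 ± 0.22 (SE; 95% interval 0.04 to 0.95; limma adjusted p = 0.239). Non-overlap with higher knockouts was found for 3 of 8 tested members, Nr4a1, Fos and Ier3, and for 6.22% of all genes tested. Fosb, which was not tested, also did not overlap, with 8.38, 10.1, 10.1 and 1.85 on controls and 24.1, 16.4, 11.1 and 20.7 on knockouts. All of these Fosb signals are far below the limit, and in the fit with no limit its change was 0.53 ± 0.33 (limma adjusted p = 0.491).

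**Figure D2:**
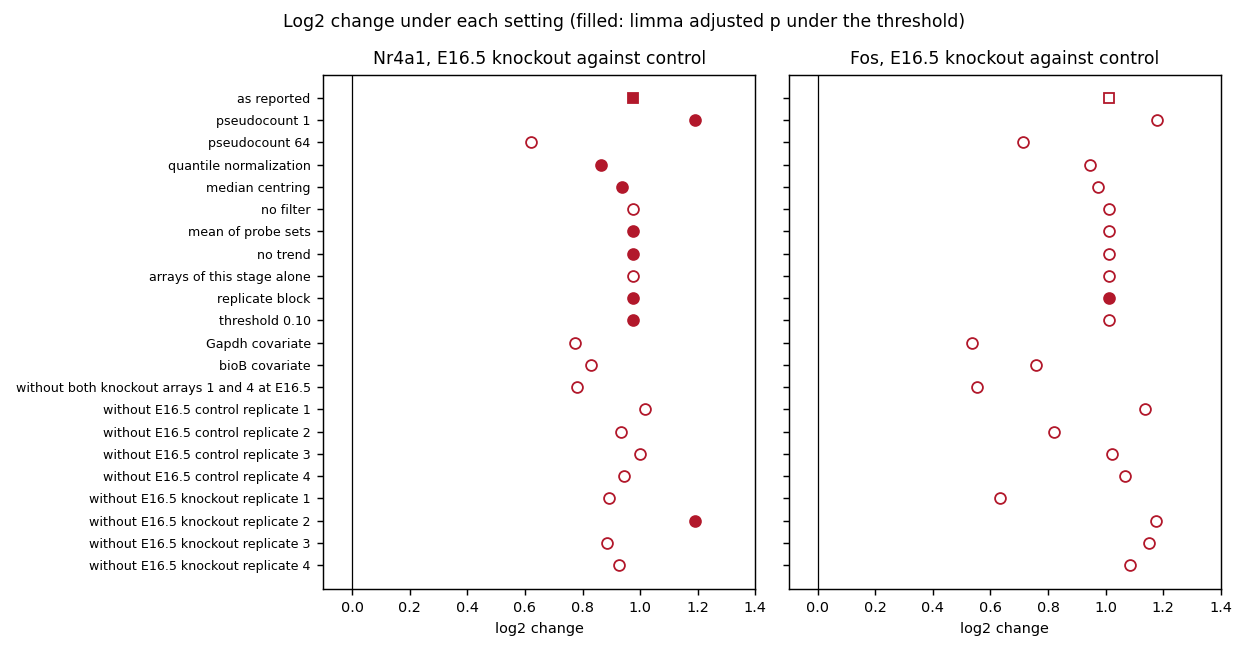
Log2 change (horizontal axis, log2 of signal + 16 unless another number was added) of Nr4a1 and Fos in E16.5 knockouts against controls under each setting (vertical axis); the square is the reported value and filled symbols passed the threshold of that setting. All values lie above 0, Nr4a1 passes in 8 of 21 alternatives and Fos in 1 of 21.

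The other AP-1 subunits and transcription factors did not share these values. Jun had 1519, 1790, 1299 and 1118 on controls and 1190, 1498, 1367 and 762 on knockouts. Knockout 4 was the lowest array and the ranges otherwise overlapped, with a log2 change of -0.27 ± 0.18 (SE; limma adjusted p = 0.453). The second Jun probe set had a change of 0.13 ± 0.16, the opposite sign. Egr1 had 1103, 976, 1031 and 912 on controls and 760, 1158, 1050 and 851 on knockouts, with the knockouts on both sides of the controls (-0.09 ± 0.23, limma adjusted p = 0.874). Junb was dim in both groups, at 25.7 to 70.2 and 4.98 to 56.7.

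Atf3 had 76.6, 78.8, 73.5 and 76.1 on controls and 151, 77.8, 74.1 and 79.0 on knockouts. Knockouts 2, 3 and 4 lay at about the control level and knockout 1 alone was high. The log2 change was 0.22 ± 0.23 (SE; limma adjusted p = 0.649), and 0.01 without knockout 1.

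Of the genes that damp or follow the response, Dusp1 had 981, 582, 627 and 717 on controls and 920.1, 827, 872 and 730 on knockouts. The highest array was a control, and the knockouts lay within the control range (0.22 ± 0.20, limma adjusted p = 0.581). Ier2 had 127, 109, 99.7 and 110 on controls and 146, 81.0, 99.2 and 176 on knockouts, with knockouts at both ends (0.11 ± 0.21, limma adjusted p = 0.824).

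**Figure D3:**
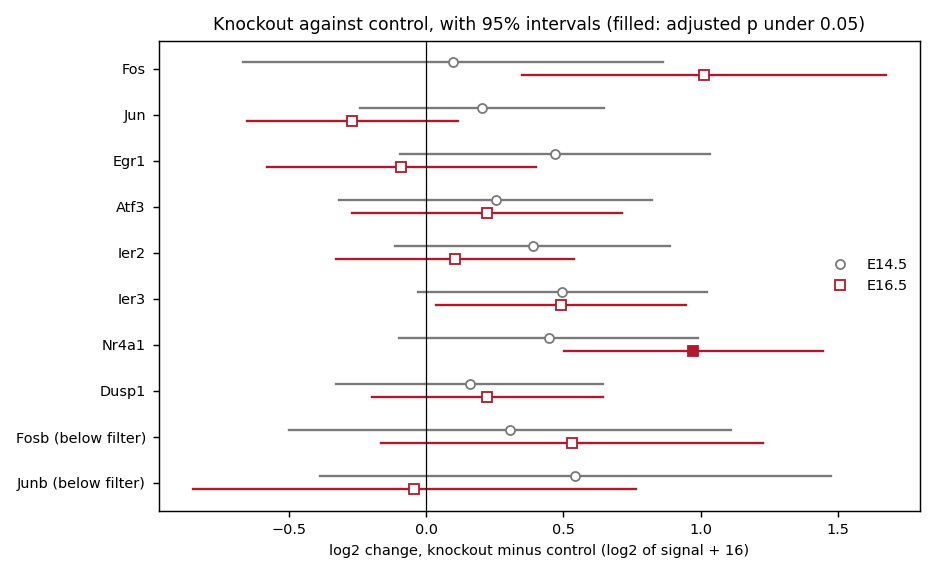
Log2 change between knockout and control (horizontal axis) with 95% intervals for the 10 genes at E14.5 (circles) and E16.5 (squares); filled symbols passed at a limma adjusted p under 0.05. Only Nr4a1 at E16.5 is filled, and the intervals of the other E16.5 genes except Fos and Ier3 include 0.

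Whether the knockout effect differed between the stages was tested directly. It passed for 0 of 8 members and for 0 of 12406 genes (0%), and at an unadjusted p under 0.05 for 0 members and 1105 genes (8.91%). The effect on Fos was larger at E16.5 by 0.91 ± 0.48 (SE; 95% interval -0.10 to 1.92; limma adjusted p = 0.588) and that on Nr4a1 by 0.53 ± 0.34 (95% interval -0.19 to 1.25; limma adjusted p = 0.663). For Egr1 the difference was -0.56 ± 0.35 and for Jun -0.47 ± 0.28 (limma adjusted p = 0.658 and 0.63). The intervals of Fos and Nr4a1 include 0 as well as changes as large as those seen at E16.5.

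As a check on handling, the members were compared array by array. At E14.5, knockout 2 was the highest of the 6 arrays for 7 of the 8 tested members, and it was the highest for 28.4% of all genes tested. The exception was Atf3, whose highest array was control 1. The mean log2 level of the 8 members, minus the mean of the stage, was 0.05, -0.18 and -0.34 on the E14.5 controls and -0.02, 0.50 and -0.01 on the knockouts. Knockouts 1 and 3 thus lay within the control range.

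At E16.5, knockout 1 was the highest of the 8 arrays for 3 of 8 members, Fos, Atf3 and Ier3, and for 19.9% of all genes. Knockout 4 was the highest for 1 of 8 members and for a larger share of all genes, 24%. The same mean was 0.03, -0.25, -0.25 and -0.20 on the controls and 0.46, -0.01, 0.14 and 0.08 on the knockouts. Control 1 was the highest of the controls, inside the range of the knockouts. The highest array was control 2 for Jun, knockout 2 for Egr1, knockout 4 for Ier2, knockout 3 for Nr4a1 and control 1 for Dusp1. The second Jun probe set differed from the first here, with its highest signal, 1286, on knockout 1 and the next, 999.9, on control 2. Without knockout 1 the median change of the 8 members at E16.5 was 0.10.

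Other measures also stood apart on these arrays. The summed signal of 12 macrophage and leukocyte markers, all above the limit for testing, was 2111 to 2759 on E14.5 controls and 2274 to 3648 on E14.5 knockouts, highest on knockout 2. At E16.5 it was 4054 to 5093 on controls and 4278 to 9581 on knockouts, highest on knockout 1. E14.5 knockout 2 and E16.5 knockout 1 were also the highest arrays of their stage for the endothelial markers (4677 and 6293), the smooth muscle markers (6795 and 6489) and the surface epithelium markers (12827 and 14898). The germ cell markers had their lowest E14.5 sum on knockout 2, 38307 against 45541 to 57802 on the other E14.5 arrays. In whole tissue, more cells of a type and more RNA per cell cannot be told apart. The part of these cell types in the members' values was not tested.

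The hybridization control bioB, a transcript added before hybridization, was 10843 on E16.5 knockout 1 and 18373 on knockout 4, and 4555 to 6397 on the other E16.5 arrays. The Gapdh 3′ minus 5′ log2 difference was 0.94 and 1.31 on those arrays and 1.57 to 1.82 on the others. Without both arrays the Nr4a1 change was 0.78 (limma adjusted p = 0.378), from 2 knockout arrays. With the Gapdh difference or bioB as a covariate it was 0.77 (limma adjusted p = 0.454) or 0.83 (limma adjusted p = 0.359). The part of these measures in the result was not tested beyond these fits.

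The adrenal cortex and surface epithelium markers were higher in sum on all knockout arrays than on all controls of the same stage, as was Nr4a1. The surface epithelium sums were 7873 to 8199 on E14.5 controls and 10232 to 12827 on E14.5 knockouts, and 8747 to 10043 and 10905 to 14898 at E16.5. A sum is weighted to bright probe sets, and these markers did not all move together. Of the 6, 6 had a positive change at E14.5 and 4 at E16.5, where Krt8 had -0.16 ± 0.12 and Krt18 -0.03 ± 0.11 (SE). The adrenal cortex sum, over 5 annotated genes of which 3 were above the limit, was 315 to 423 on E16.5 controls and 780 to 1109 on E16.5 knockouts. It was 385 to 683 on E14.5 controls and 736 to 998 on E14.5 knockouts. Mc2r, the corticotropin receptor, rose by 1.46 ± 0.23 (log2) at E16.5 (limma adjusted p = 0.00533), and Hao2 rose by 1.49 ± 0.27 (limma adjusted p = 0.0109). Cyp11b1, an enzyme of the adrenal cortex, averaged 5.85 on E16.5 controls and 7.04 on E16.5 knockouts, below the limit. On E16.5 knockout 2, where Nr4a1 was lowest among the knockouts, the sum was 915. The part of these cells in the Nr4a1 change was not tested.

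**Figure D4:**
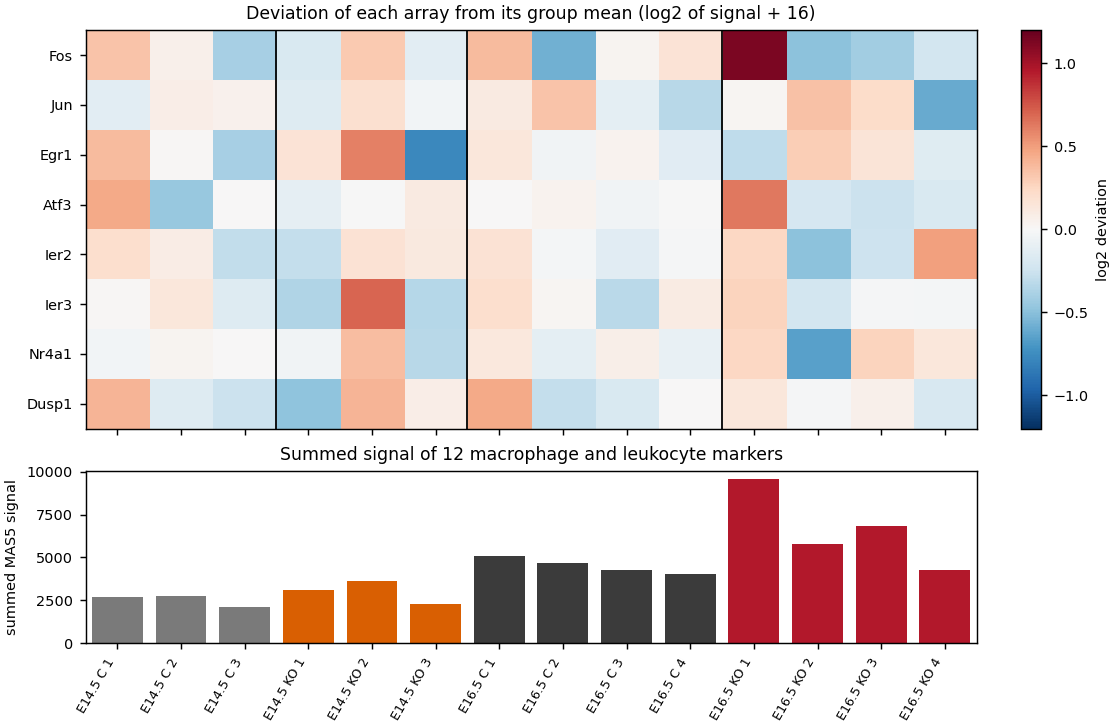
Top, deviation of each of the 14 arrays (columns; C, control, KO, knockout) from its group mean for the 8 tested members (rows), as a log2 difference shown by colour; bottom, summed MAS5 signal of 12 macrophage and leukocyte markers on the same arrays. E16.5 KO 1 is the darkest for Fos, and it has the highest marker sum, 9581.

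The members did not vary as a single block. After the group means were removed, Pearson's r over the 14 arrays between each member and the mean of the other 7 was 0.78 for Ier3, 0.70 for Dusp1 and 0.66 for Fos. It was 0.48 for Nr4a1, 0.40 for Ier2, 0.35 for Atf3, 0.22 for Egr1 and -0.07 for Jun. Egr1 and the brighter Jun probe set thus moved least with the rest, although Jun and Fos encode partners of the same dimer. The second Jun probe set was not part of this measure. It had its highest signals of each stage, 569 and 1286, on E14.5 knockout 2 and E16.5 knockout 1, so the value for Jun may depend on the probe set.

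The 8 genes most like the mean of the members, by r of deviations from group means over the 14 arrays, were Smcr8 (0.95), Aldoc, a glycolytic enzyme (0.95), Stat6, a cytokine-activated factor (0.95), Rapgef3, a cyclic AMP-activated exchange factor (0.92), Lgals3, a galectin (0.92), Anxa5, an annexin (0.91), Osr1, a zinc finger factor (0.91), and Ctla2a (0.90). An r above 0.5 was found for 11.3% of all genes tested. It was found for 10 of 12 macrophage and leukocyte markers, 5 of 8 endothelial markers, 3 of 4 smooth muscle markers and 3 of 6 surface epithelium markers above the limit. The adrenal cortex markers gave 2 of 3, the adrenal medulla and sympathetic markers 1 of 1 and the granulosa lineage markers 1 of 6. Germ cell markers gave 0 of 6, Sertoli markers 0 of 4, mesonephric markers 0 of 3 and red cell markers 0 of 2. All these values come from the same 14 arrays and share whatever sets an array apart, and they carry no test.

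Other genes of the response were followed in lists. Of all genes tested, 55.3% had a positive change at E14.5 and 58.9% at E16.5. An unadjusted limma p under 0.05 was found for 8.55% of them at E14.5 and 18.3% at E16.5. These shares are the background for each list below. Of 20 other immediate early transcription factors 13 were tested, and 0 passed at either stage. At E14.5, 12 of 13 had a positive change, with a median of 0.24, and 3 had an unadjusted p under 0.05. At E16.5, 9 of 13 were positive, with a median of 0.15, and 3 had an unadjusted p under 0.05. Bhlhe40, a basic helix-loop-helix repressor, was the nearest to the threshold at both stages. Its signal was 81.1 ± 26.4 (SD, n = 3) in E14.5 controls and 184 ± 62.2 in E14.5 knockouts, a change of 1.03 ± 0.23 (SE; limma adjusted p = 0.205). At E16.5 it was 161 ± 12.9 (SD, n = 4) and 278 ± 10.6, a change of 0.74 ± 0.20 (limma adjusted p = 0.066). Maff, a small MAF factor, had a change of 0.93 ± 0.30 at E14.5 (limma adjusted p = 0.396), and Myc had 0.36 ± 0.14 at E16.5 (limma adjusted p = 0.177).

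Of 24 immediate early genes for signalling and RNA decay, 22 were tested and 0 passed at either stage. At E14.5, 19 of 22 were positive, with a median of 0.14, and 3 had an unadjusted p under 0.05. At E16.5, 16 of 22 were positive, with a median of 0.14, and 9 had an unadjusted p under 0.05. Ccn1, a secreted matrix protein, had a change of 1.12 ± 0.38 at E16.5 (limma adjusted p = 0.14), with 189 ± 19.4 (SD, n = 4) in controls and 518 ± 426 in knockouts. Its knockout arrays were widely spread. The kinase Sgk1 had 0.60 ± 0.20 at E16.5 (limma adjusted p = 0.138). At E14.5 the growth arrest genes Gadd45g and Gadd45b had changes of -0.57 ± 0.18 and 0.77 ± 0.30 (limma adjusted p = 0.381 and 0.455).

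Heat shock genes showed no shared direction between genotypes. Of 12 tested, 0 passed, and 2 at E14.5 and 3 at E16.5 had an unadjusted p under 0.05. Positive changes were found for 4 of 12 at E14.5 (median -0.06) and 7 of 12 at E16.5 (median 0.02). The small heat shock protein gene Hspb1 had a change of 0.60 ± 0.26 at E14.5 (limma adjusted p = 0.531) and of 0.72 ± 0.22 at E16.5 (limma adjusted p = 0.116), and the inducible Hspa1a had 0.61 ± 0.21 at E14.5 (limma adjusted p = 0.414). Dnaja1, a co-chaperone, had -0.29 ± 0.11 at E16.5 (limma adjusted p = 0.182). Of 13 genes of the unfolded protein and integrated stress responses, 0 passed, 2 at E14.5 and 1 at E16.5 had an unadjusted p under 0.05, and 9 of 13 were positive at E14.5 and 10 of 13 at E16.5. Sesn2, a sestrin, had 0.69 ± 0.27 at E16.5 (limma adjusted p = 0.185), and Ddit3, which encodes CHOP, had 0.31 ± 0.16 (limma adjusted p = 0.336). Of 19 upstream kinases and factors 0 passed, 3 at E14.5 and 1 at E16.5 had an unadjusted p under 0.05, and 10 of 19 were positive at E14.5 and 11 of 19 at E16.5. Mapk14, which encodes p38 MAP kinase, had -0.30 ± 0.12 at E16.5 (limma adjusted p = 0.185). At E14.5 the factor Mef2c had 0.73 ± 0.21 (limma adjusted p = 0.313).

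By the same measure of likeness, 5 of 13 of the transcription factors, 9 of 22 of the signalling and RNA decay genes, 2 of 12 heat shock genes, 1 of 13 unfolded protein response genes and 1 of 19 upstream genes had an r above 0.5 with the members' mean. The highest values were those of Ccn2 (0.88), Hspb1 (0.85), Myc (0.81) and Klf2 (0.80).

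The E16.5 and E14.5 controls differed for most members, and here the stage cannot be told apart from the processing of the arrays. The Gapdh 3′ minus 5′ log2 difference was -0.42 to -0.06 on E14.5 arrays and 0.94 to 1.82 on E16.5 arrays, with no overlap. The same difference for Actb went the other way, also with no overlap. It was 0.80 to 0.98 on E14.5 arrays and -0.02 to 0.29 on E16.5 arrays, so the 2 controls do not describe a single shift toward the 3′ end. The bioB signal was 1429 to 1940 and 4555 to 18373, and the median signal of an array 90.0 to 102 and 118 to 136. Of 3932 genes with at least 2 probe sets passing between the control groups, 1963 (49.9%) had probe sets that passed in opposite directions. In the E16.5 knockout comparison that was 0 of 22 genes.

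Between controls, 6 of 8 members passed, against 64.4% of all genes. Fos, Ier2 and Nr4a1 were lower at E16.5 (35.9% of all genes) and Jun, Egr1 and Dusp1 higher (28.5%). Ier2 went from 443 ± 79.0 (SD, n = 3) to 111 ± 11.2 (SD, n = 4), a change of -1.84 ± 0.22 (SE; limma adjusted p = 1.43e-06). Nr4a1 went from 174 ± 4.13 to 42.6 ± 4.94, a change of -1.70 ± 0.24 (limma adjusted p = 8.92e-06), and Fos from 231 ± 61.2 to 62.2 ± 20.1, a change of -1.67 ± 0.34 (limma adjusted p = 0.000365). All E16.5 control arrays of these 3 genes lay below all E14.5 controls.

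Egr1 went from 427 ± 117 to 1005 ± 81.1, a change of 1.24 ± 0.25 (SE; limma adjusted p = 0.000346), and Dusp1 from 304 ± 83.0 to 727 ± 179, a change of 1.22 ± 0.22 (limma adjusted p = 9.7e-05). Jun went from 694 ± 54.2 to 1432 ± 290, a change of 1.01 ± 0.20 (limma adjusted p = 0.000248), and its second probe set went the same way, by 0.78 ± 0.17. Groups did not overlap for 6 of the 8 tested members, the same 6 that passed, against 67.6% of all genes. Atf3 (-0.42 ± 0.25) and Ier3 (-0.18 ± 0.23) did not pass (limma adjusted p = 0.154 and 0.515). Centring each array on its median lowered every change of this comparison by 0.34 and turned no sign of the 6. It took the genes passing from 3541 higher and 4452 lower to 2257 higher and 6251 lower. With the Gapdh difference as a covariate 0 of 8 passed and Fos and Egr1 changed sign.

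Between the knockout groups of the stages, 5 of 8 members passed, against 60.8% of all genes. Ier2 (-2.12 ± 0.22, SE) and Nr4a1 (-1.17 ± 0.24) were lower at E16.5, as were 33.8% of all genes, and Dusp1 (1.28 ± 0.22), Egr1 (0.68 ± 0.25) and Jun (0.54 ± 0.20) were higher, as were 27% of all genes. The limma adjusted p was 3.29e-07, 0.000445, 6.64e-05, 0.0268 and 0.0258 in that order. Fos, at -0.75 ± 0.34, did not pass (limma adjusted p = 0.0638). In the main fit the AP-1 partners Fos and Jun had opposite signs between stages in both genotypes. For Fos the change did not pass in knockouts, and in controls its sign turned with the Gapdh covariate.

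Among the response lists, the controls' stage comparison gave 10 higher and 1 lower of 13 other transcription factors and 4 higher and 8 lower of 22 signalling and RNA decay genes. It gave 2 higher and 5 lower of 12 heat shock genes, 3 higher and 8 lower of 13 unfolded protein response genes, and 6 higher and 5 lower of 19 upstream genes. With each array centred on its median the counts in that order were 8 and 1, 4 and 14, 1 and 9, 3 and 10, and 5 and 11. Of the genes in these lists with at least 2 probe sets passing, the probe sets went opposite ways for 2 of 4, 3 of 7, 1 of 6, 2 of 3 and 6 of 14.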

How the data were processed

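Intensity values were deposited on a linear scale, 1 per probe set. Per the submitters' processing notes they were made by MAS5 with the Affymetrix Expression Console, with versions not given in the sources used here. Leaving out 2% at each end, the mean of every array was 500, which removes any global difference in RNA amount. Per the labels' protocols, 100 ng of RNA was amplified with a 16-hour transcription reaction.

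Values were taken as log2(signal + 16). Of 45037 probe sets, 34945 had 1 symbol in the platform annotation, 932 several and 9160 none. The brightest probe set stood for a gene, and the 12406 genes with a mean above the 40th percentile were tested. In R 4.3.3, limma 3.58.1 fitted the 4 group means over the 14 arrays, with eBayes moderating the spread along a trend. Tests were two-sided, with Benjamini-Hochberg adjustment and a threshold of 0.05. Alternatives changed the number added, the scaling, the filter, the probe set rule, the spread model, the threshold and the arrays in the fit, or added a replicate block or an array control as a covariate. The steps were tested on simulated data. Figures used matplotlib 3.10.9 in Python 3.11.15. The number of arrays limits the precision.

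Genes named are all members, from each list up to 4 that passed or 2 as values, and the 8 most like the members. Members and lists were chosen with earlier results of these data known, as were the arrays and control measures doubted in the alternatives.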

Additional observations from a re-analysis of the deposited data

Results flagged for a closer look

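The 22 groups of 4 arrays tested were each a probe set in a genotype at E16.5. Of these, 4 had an array far from the others, where chance gives about 1 in 20. The share of all probe sets by the same rule is not given here, so the count is not read as a trait of the members. Knockouts 1 and 4 were the highest E16.5 arrays for 19.9% and 24% of all genes tested. The gap of the array that stood apart to its nearest neighbour was taken as a share of the group's range, both in log2(signal + 16). This share was 0.83 for Fos on knockout 1 (linear signal 320) and 0.914 for Atf3 on knockout 1 (151). It was 0.86 for Nr4a1 on knockout 2 (57.2) and 0.879 for Junb on knockout 3 (4.98). All 4 groups were E16.5 knockouts, and 2 of the 4 arrays were knockout 1. Groups of 3 arrays, at E14.5, were not tested.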

How the results depend on the processing

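The count of members passing at E16.5 was 1. It was 0 with 64 added before the log, with no filter, with the 60th percentile filter, with the arrays of this stage alone, with the Gapdh or bioB covariate and without both knockout arrays 1 and 4, and it was 0 to 1 with 1 array left out. With the 60th percentile filter Nr4a1 was not among the genes tested. At E14.5, and for the difference between stages, it was 0 in every alternative run. Between controls of the stages it was 6, 6 to 7 with 1 array left out, and 0 with the Gapdh covariate, where Fos had a log2 change of 0.87 and Egr1 of -0.79. The other alternatives gave 6 to 8.

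Over all genes, 5 passed at E14.5 (0 to 179 with 1 array left out, 0 to 9 otherwise, with 179 without knockout 3, 23 without control 1, 1 without knockout 1 and 0 without each other array), 176 at E16.5 (43 to 494, 16 to 466, with 43 without knockout 1, 494 without knockout 2 and 78 to 102 without knockout 4 or any control), 0 for the difference (0 to 30, 0 to 1) and 7993 between controls (7274 to 7626, 701 to 9451). In each response list 0 to 2 genes passed in any alternative for the knockout comparisons. The next values are correlations of deviations from group means, not of signal levels. Same-numbered control and knockout arrays correlated at -0.003, 0.161 and -0.048 at E14.5 and at 0.192, -0.002, 0.058 and 0.43 at E16.5. At E14.5 2 of 6 arrays, and at E16.5 4 of 8, correlated best with their own number. With so few arrays these values do not settle whether the numbers pair the arrays, and the main fit used no pairing. With the replicate block 2 members passed at E16.5, Nr4a1 (limma adjusted p = 0.0413) and Fos (limma adjusted p = 0.0461), and 293 genes; at E14.5, 0 members and 9 genes passed. Signals of Fosb, Junb and Nr4a1 near or below the limit of about 62.0 bound how well their changes are known.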
